A study of Mus musculus with 6 samples.

Results

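The nuclear genes for the enzymes of oxidative phosphorylation were followed in stimulated CD4+ T cells of young and old mice. Members were all genes whose mouse symbol begins with Nduf, Uqcr, Atp5 or Cox and a digit from 4 to 8, the 4 Sdh genes of succinate dehydrogenase, and Cycs and Cyc1. The reference holds 117 such symbols, of which 98 had a row among the 19977 genes of the deposited table. Of the 19 others, 18 are pseudogenes and 1 is Ndufb1. The 98 members comprised 47 genes of complex I, 4 of complex II, 9 of complex III, cytochrome c, 20 of complex IV and 17 of complex V, with Ndufa4 and Ndufa4l2 placed in complex IV. A mean of at least 1 FPKM (fragments mapped per kilobase of transcript, scaled to the size of the library) was reached by 89 members, and the comparisons below are about these; the 9 others, given with their complex below, include 2 that were at 0 in every library.

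Complexes I to IV form the respiratory chain of the inner mitochondrial membrane. They pass electrons from NADH and succinate to oxygen and pump protons, and complex V, the ATP synthase, lets the protons flow back and makes ATP. Most subunits are encoded in the nucleus and imported, while a small number come from mitochondrial DNA. T cells that leave quiescence after receptor stimulation enlarge their mitochondria and raise both glycolysis and respiration.

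The CD4+ T cells were taken from spleen and lymph nodes of C57BL/6 mice with a wild type genotype and were isolated by flow cytometry. In both age groups they were stimulated with anti-CD3, against the T-cell receptor complex, and anti-CD28, against a costimulatory receptor, for 6 hours, so no unstimulated cells stand beside them. The young group came from mice of 6 to 8 weeks, for which the sample titles carry a 1-month code, and the old group from mice of 11 months. Each group had 3 libraries, made from total RNA, with 16932551 to 18708205 expected counts each. The labels do not say that the libraries came from separate animals, so the p-values measure the spread between libraries, which may be technical.

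As for the cells themselves, 6 of 7 CD4 T cell markers were measured and summed to 2303 to 2889 CPM (counts scaled to the size of the library) in each library. The 2 CD8 markers summed to 19.7, 16.6 and 27.4 CPM in young replicates 1, 2 and 3 and to 14.6, 11.2 and 12.7 CPM in old replicates 1, 2 and 3, nearly all of it Cd8b1 (log2 difference -0.84 ± 0.26, unadjusted p = 0.0145, adjusted p = 0.266). The 5 B cell markers summed to 34.0, 12.4 and 11.5 CPM in the young libraries and to 9.68 to 17.9 CPM in the old libraries. The 4 neutrophil markers summed to 25.2, 11.2 and 28.9 CPM in the young libraries and to 11.4, 1.18 and 5.34 CPM in the old ones. The 5 myeloid markers summed to 14.0, 8.04 and 12.8 CPM in the young and to 7.11, 5.11 and 8.00 CPM in the old libraries, with Lyz2 the most abundant (log2 difference -0.87 ± 0.35, unadjusted p = 0.0396, adjusted p = 0.428). The CD8 and myeloid sums were thus lower in every old library than in every young one, and the neutrophil sums overlapped only through old replicate 1 and young replicate 2. The NK and erythroid markers summed to at most 3.62 CPM. The part of other cell types in the differences given for members was not tested.

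The young libraries did not form 1 level for these genes. Members took 0.657%, 1.02% and 1.18% of all counts in young replicates 1, 2 and 3, and 0.879%, 0.769% and 0.859% in old replicates 1, 2 and 3. The 3 old libraries thus lay between young replicate 1 below and young replicates 2 and 3 above. In bulk RNA a smaller number of cells that express a gene and less of its RNA in each cell cannot be told apart. Relative to each gene's mean over the 6 libraries, the median member stood at 0.733, 1.13 and 1.34 in the young and at 0.985, 0.827 and 0.950 in the old libraries. Young replicate 1 read below both other young libraries in 85 of the 89 members, beside 38.8% of the 10509 genes tested. The 4 exceptions were Atp5g2, Cox7a2l, Ndufa6 and Ndufaf7. The median ratio of young replicate 1 to the mean of the other young libraries was 0.589 over members and 1.07 over all genes tested, and 29 members had a ratio under 0.5, beside 6.75% of the genes tested. Young replicate 3 was the highest young library in 69 members, and old replicate 2 the lowest old library in 78.

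**Figure D1:**
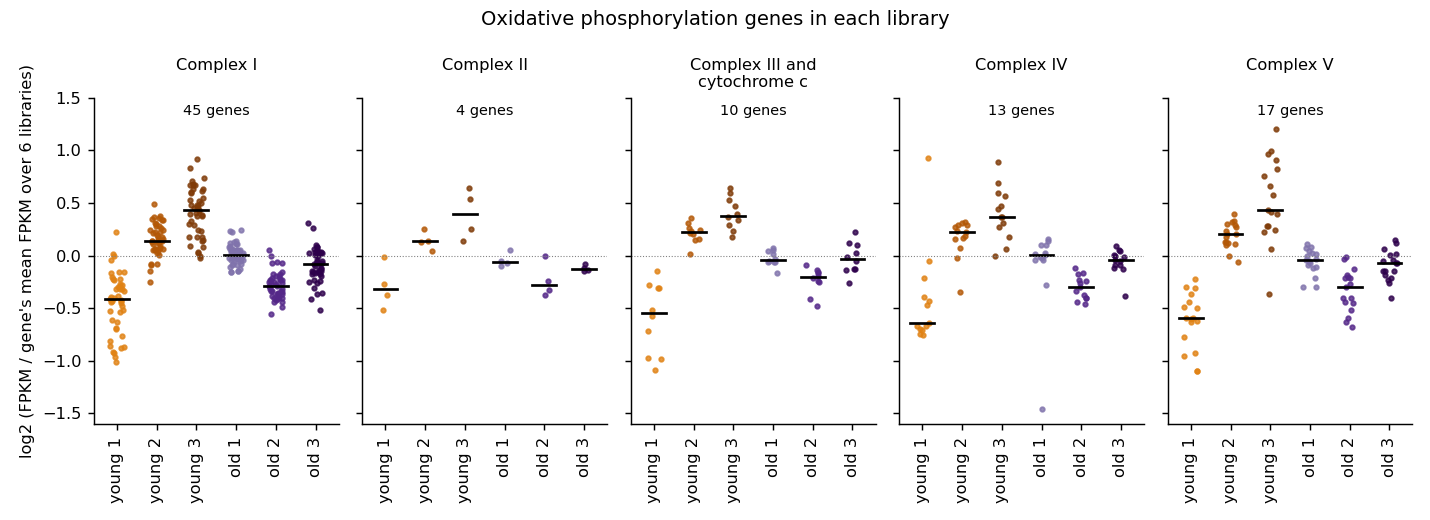
Level of each oxidative phosphorylation gene in each library, as the log2 ratio of its FPKM to its own mean over the 6 libraries, by complex; a dot is a gene (89 in all) and a bar is the median. In each panel the median of young replicate 1 is the lowest and that of young replicate 3 the highest, with the old libraries between; the isolated dots of complex IV are Cox7a2l (high in young replicate 1) and Cox6b2 (low in old replicate 1).

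The same order was found in each complex, as the plot of relative levels shows. For complex I the median member stood at 0.751, 1.10 and 1.35 of its mean in the young and at 0.816 and 0.947 in old replicates 2 and 3, with old replicate 1 at its mean. The 4 genes of complex II had medians of 0.800, 1.10 and 1.32 in the young and of 0.959, 0.824 and 0.917 in the old libraries. The medians for complex III were 0.699, 1.18 and 1.32, and then 0.967, 0.863 and 0.962. In complex IV they were 0.643, 1.17 and 1.29, and then 1.01, 0.811 and 0.973, and in complex V 0.662, 1.15 and 1.35, and then 0.973, 0.812 and 0.950.

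Gene by gene, all 3 old libraries read above young replicate 1 and below young replicates 2 and 3 in 58 of the 89 members; 11.8% of all genes tested did so. All 3 old libraries were below young replicates 2 and 3 in 71 members, beside 21.1% of the genes tested, and above both in 0 members, beside 25.5%. The 71 comprised 31 of 45 complex I genes, 4 of 4 in complex II, 9 of 9 in complex III, 11 of 13 in complex IV and 16 of 17 in complex V. With young replicate 1 included, the old libraries were below every young library in 4 members, Cox6b2, Ndufa6 and Ndufv3 among them, beside 6.08% of the genes tested.

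Since the members moved together across libraries, the starts of their genes are shown for a member of each complex, picked among the members that hold a match to NRF1 or GABPA letters in this stretch. Nuclear respiratory factor 1 (NRF1), the ETS factor GABPA (nuclear respiratory factor 2) and YY1 are known regulators of such genes. RefSeq promoter windows of GRCm38.p6, from 250 bases before the start to 49 after it, were found for 74 of the 89 members and searched on both strands. The GABPA/ETS letters CCGGAAG occurred in 19 of them (25.7%), in 22.6% of 8436 other genes tested and in 9.93% of all 27025 windows. The NRF1 letters GCATGCG occurred in 14 (18.9%), in 7.74% and in 4.01%, and the YY1 letters AAGATGG in 12 (16.2%), in 8.83% and in 7.28%. At least 1 of the 3 was in 37 members (50.0%), in 34.6% of the other genes tested and in 19.3% of all windows, and the median GC content of the windows was 59.0%, 61.0% and 52.7% in that order. A match is a string of letters and was not shown to be bound. The following stretches run 5′ to 3′ along the gene from 100 bases before the RefSeq start to 29 after it, with NRF1 and GABPA/ETS letters of either strand in capitals; CGCATGCG holds the NRF1 letters on both strands, overlapping.
Ndufa11 (complex I, chr17:56717662-56717791, plus strand), Sdhb (complex II, chr4:140961171-140961300, plus strand), Uqcr11 (complex III, chr10:80406792-80406921, minus strand), Cycs (chr6:50566540-50566669, minus strand), Cox6a1 (complex IV, chr5:115348929-115349058, minus strand) and Atp5k (complex V, chr5:108434370-108434499, minus strand) are given in this order.
Ndufa11: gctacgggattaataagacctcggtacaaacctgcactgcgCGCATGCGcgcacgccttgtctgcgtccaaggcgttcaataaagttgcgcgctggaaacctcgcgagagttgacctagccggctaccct
Sdhb: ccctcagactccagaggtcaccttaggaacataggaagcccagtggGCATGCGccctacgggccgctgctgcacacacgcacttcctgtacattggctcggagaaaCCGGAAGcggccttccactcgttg
Uqcr11: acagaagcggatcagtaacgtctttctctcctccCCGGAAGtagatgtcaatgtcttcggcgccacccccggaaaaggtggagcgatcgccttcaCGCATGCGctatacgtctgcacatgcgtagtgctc
Cycs: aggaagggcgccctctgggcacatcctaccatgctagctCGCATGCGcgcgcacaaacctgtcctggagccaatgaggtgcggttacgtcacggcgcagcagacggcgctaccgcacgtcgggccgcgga
Cox6a1: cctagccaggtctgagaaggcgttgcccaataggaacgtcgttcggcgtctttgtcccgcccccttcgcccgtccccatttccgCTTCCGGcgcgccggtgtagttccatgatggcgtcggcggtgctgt
Atp5k: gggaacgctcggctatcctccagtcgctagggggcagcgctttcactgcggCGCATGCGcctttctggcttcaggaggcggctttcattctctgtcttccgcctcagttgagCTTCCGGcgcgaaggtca
Sdhb, Uqcr11 and Atp5k held letters of both factors in the stretch, Ndufa11 and Cycs those of NRF1, and Cox6a1 those of GABPA/ETS. These members did not share 1 size of difference: without young replicate 1 the log2 difference was -0.91 for Atp5k and -0.18 for Cycs. Their transcripts differed in length, at 261 and 3082 bases. With the length offsets described below the 2 differences were closer, -0.33 for Atp5k and -0.22 for Cycs.

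With all 6 libraries, no member passed the test between old and young. The quasi-likelihood test of edgeR called 0 of 89 members at a Benjamini-Hochberg adjusted p under 0.05, where it called 0.875% of the 10509 genes tested. DESeq2 called 0 members and 4.77% of all genes, and limma on log2(FPKM + 1) 0 members and 0.942% of all genes. At an unadjusted p under 0.05 there were 2 members, Ndufv3 and Ndufa6, beside 10.6% of all genes. The log2 difference, old minus young, was negative for 83 of 89 members with a median of -0.24, beside -0.03 over all genes tested. By complex the median was -0.24 for complex I, -0.27 for complex II, -0.23 for complex III, -0.25 for complex IV and -0.24 for complex V, and Cycs stood at 0.13. The median without young replicate 3 was -0.003, with 45 members negative, so it rested on that library.

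Without young replicate 1 the differences were larger. The median log2 difference over members was then -0.46, beside 0.01 over all genes tested, and 88 of 89 members were negative. At an adjusted p under 0.05 edgeR called 5 members, all lower in old: Ndufc2, Ndufa11, Uqcrc1, Atp5g3 and Atp5mpl. The genes called lower in old made up 2.94% of the 10427 genes tested and those called in either direction 8.92%, so 5 of 89 members is not far from the background. At an unadjusted p under 0.05 there were 65 members, all lower, beside 13.3% of all genes lower at that level. DESeq2 called 41 members, all lower, beside 7.66% of all genes, and limma on log2(FPKM + 1) called 2, both lower, beside 2.43%. The medians by complex were -0.46 for complex I, -0.46 for complex II, -0.48 for complex III, -0.42 for complex IV and -0.49 for complex V. These counts rested on single libraries. Set alone against the 3 old libraries, young replicate 3 gave 29 called members with a median of -0.61, beside 4.72% of all genes called lower, while young replicate 2 gave 0 called members (0.345% of all genes were called) and 12 at an unadjusted p under 0.05 (14.9% of all genes), with a median of -0.32 and 88 members negative. In those fits the lone young library is assumed to vary as the old ones do. Leaving out old replicate 2 or old replicate 3 beside young replicate 1 also gave 0 called members, where 0.375% and 1.24% of all genes were called lower, so 0 of 89 is near the background there.

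**Figure D2:**
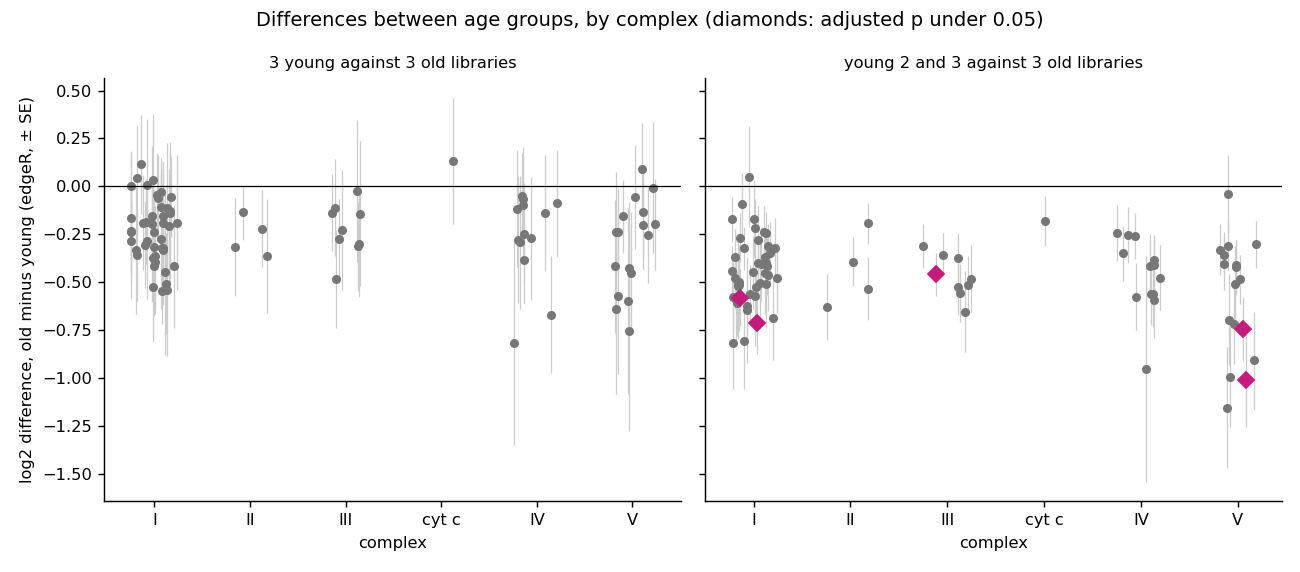
Log2 difference, old minus young, with its standard error from edgeR for the 89 members by complex, with all 6 libraries (left) and without young replicate 1 (right); each point is a gene and diamonds have an adjusted p under 0.05. On the left most points lie a little below 0 and none is called; on the right 88 of 89 lie below 0 with smaller errors, and 5 are called.

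Complex I takes electrons from NADH and is the largest complex of the chain. Its 7 nuclear core subunits carry the flavin and the iron-sulphur clusters. Their means ran from 27.2 to 87.3 FPKM, and without young replicate 1 the median log2 difference was -0.31, with 0 of 7 called and 4 at an unadjusted p under 0.05. The 29 accessory subunits, which surround and stabilise the core, ran from 19.8 to 149.9 FPKM with a median of -0.48, 2 called and 19 at an unadjusted p under 0.05. In this fit 2.94% of all genes tested were called lower, and 13.3% were lower at an unadjusted p under 0.05. The same shares stand beside the counts without young replicate 1 given below for subgroups of the other complexes. The median transcript length was 1534 bases for the core and 627 bases for the accessory subunits. With the length offsets described below, the order of the medians was reversed, at -0.20 for the core and -0.11 for the accessory subunits. Ndufb7 had the highest mean of the complex. Its level was 88.2, 157 and 226 FPKM in young replicates 1, 2 and 3 and 135, 134 and 159 FPKM in old replicates 1, 2 and 3. The old libraries overlapped young replicate 2, and the log2 difference without young replicate 1 was -0.46 ± 0.19 (SE, adjusted p = 0.15).

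Of the called accessory subunits, Ndufc2 (gene number 68197, chr7:97400003-97407800) is part of the membrane arm. Ndufc2 read 65.7, 119 and 162 FPKM in the young libraries and 92.3, 81.9 and 90.1 FPKM in the old. The old libraries lay close together, above young replicate 1 and below the other young libraries. The log2 difference was -0.42 ± 0.32 with all libraries (adjusted p = 0.764) and -0.72 ± 0.16 without young replicate 1 (adjusted p = 0.0349). Ndufa11 (gene number 69875, chr17:56717762-56724248), also of the membrane arm, read 13.8, 25.7 and 26.3 FPKM in the young and 20.3, 15.1 and 17.9 FPKM in the old libraries. Here too the old libraries fell between young replicate 1 and the others. The log2 difference was -0.32 ± 0.28 with all libraries (adjusted p = 0.807) and -0.58 ± 0.15 without young replicate 1 (adjusted p = 0.0497).

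Ndufv3, a small subunit at the NADH-binding tip, departed from the common order. It read 47.6, 53.4 and 69.2 FPKM in the young and 47.3, 37.0 and 39.6 FPKM in the old libraries. All old libraries were below all young ones, old replicate 1 by a narrow margin. The log2 difference was -0.54 ± 0.17 with all libraries (unadjusted p = 0.0158, adjusted p = 0.281) and -0.51 ± 0.16 without young replicate 1 (adjusted p = 0.0917). Ndufa6, an accessory subunit of the matrix arm, was the other member at an unadjusted p under 0.05, with 123, 114 and 119 FPKM in the young and 102, 78.6 and 95.3 FPKM in the old libraries. Young replicate 1 was its highest library, and the log2 difference was -0.37 ± 0.16 (unadjusted p = 0.0486, adjusted p = 0.464) with all libraries. Ndufa12, an accessory subunit of the matrix arm, read 57.9, 154 and 112 FPKM in the young and 129.6, 93.6 and 111 FPKM in the old libraries, which overlapped. Its log2 difference was 0.03 ± 0.34 with all libraries.

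The 8 assembly factors Ndufaf1 to Ndufaf8, which build complex I without being part of it, had low levels, with means of 7.89 to 43.2 FPKM. Their median log2 difference was -0.26 with all libraries and -0.54 without young replicate 1, with 0 called in either. Ndufaf3 was the lowest, at 7.09, 7.48 and 8.06 FPKM in the young and 9.28, 5.98 and 9.46 FPKM in the old libraries. The groups overlapped, and it was the only member with a positive log2 difference without young replicate 1, 0.05 ± 0.27. Of the paralogs of Ndufb4, a membrane-arm subunit at a mean of 81.1 FPKM, Ndufb4c was listed at 31.3 FPKM and Ndufb4b at 0.623 FPKM. Reads of such near copies may have been divided between them, so their levels are uncertain. The pseudogene Ndufa11b had a mean of 0.03 FPKM.

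Complex II, succinate dehydrogenase, links the citric acid cycle to the chain, has no subunit of mitochondrial origin and pumps no protons. Sdha, the flavoprotein that binds succinate, read 61.2, 63.9 and 68.3 FPKM in the young and 59.1, 61.7 and 57.2 FPKM in the old libraries. It varied little among the libraries of either group, and its log2 difference without young replicate 1 was -0.19 ± 0.11 (adjusted p = 0.273). Sdhb, the iron-sulphur subunit, read 77.9, 123 and 174 FPKM in the young and 104, 89.4 and 102 FPKM in the old libraries. Young replicate 3 stood well above the rest, and the log2 difference was -0.63 ± 0.17 (adjusted p = 0.0619). The membrane anchor Sdhc read 62.6, 88.6 and 118 FPKM in the young and 78.0, 62.5 and 76.4 FPKM in the old libraries, with a log2 difference of -0.53 ± 0.17 (adjusted p = 0.0845). The other anchor, Sdhd, read 36.2, 52.3 and 52.0 FPKM and then 45.5, 37.1 and 39.5 FPKM, with -0.39 ± 0.13 (adjusted p = 0.0928). So Sdha, which joins Sdhb in the matrix part of the enzyme, had the smallest difference of the 4, but no test between them was made. Its transcript was also the longest of the 4, at 2878 bases. With the length offsets described below, Sdha was no longer the smallest, at -0.222 beside -0.217 for Sdhd.

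Complex III passes electrons from ubiquinol to cytochrome c, which carries them to complex IV. Uqcrc1 (gene number 22273, chr9:108936648-108949641), a core protein on the matrix side, read 101, 145 and 155 FPKM in the young and 117, 106 and 112 FPKM in the old libraries. The old libraries were all below young replicates 2 and 3 and above young replicate 1. The log2 difference was -0.28 ± 0.21 with all libraries (adjusted p = 0.758) and -0.46 ± 0.11 without young replicate 1 (adjusted p = 0.0442). Cyc1, the haem-bearing cytochrome c1, read 78.7, 139.7 and 143 FPKM in the young and 118, 106 and 115 FPKM in the old libraries. Uqcrfs1, the Rieske iron-sulphur protein, read 61.3, 84.6 and 105 FPKM and then 67.7, 64.1 and 73.2 FPKM. Both kept the common order, with log2 differences of -0.36 ± 0.11 (adjusted p = 0.0861) and -0.51 ± 0.15 (adjusted p = 0.0694) without young replicate 1.

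The 5 small subunits Uqcrh, Uqcrb, Uqcrq, Uqcr10 and Uqcr11 had means of 87.5 to 164 FPKM and a median log2 difference of -0.52 without young replicate 1, with 0 called and 5 at an unadjusted p under 0.05. Their median transcript length was 476 bases, and with the length offsets described below their median log2 difference was -0.13. The highest mean was that of Uqcr10, at 115, 211 and 216 FPKM in the young and 170.0, 123 and 151 FPKM in the old libraries. Uqcrh, the hinge protein that helps cytochrome c to bind, read 144, 162 and 249.6 FPKM in the young and 154, 115 and 134 FPKM in the old libraries. It had the most negative difference of the complex with all libraries, -0.48 ± 0.26 (adjusted p = 0.606), and Uqcrq, a ubiquinone-binding subunit, the least, -0.02 ± 0.37 (adjusted p = 0.993).

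Cycs, the somatic cytochrome c that also acts in cell death, did not keep the common order. It read 32.4, 73.4 and 75.0 FPKM in the young and 67.2, 59.7 and 74.3 FPKM in the old libraries. Old replicate 3 lay between young replicates 2 and 3, and young replicate 1 was less than each of the others. The log2 difference was 0.13 ± 0.33 with all libraries (adjusted p = 0.955) and -0.18 ± 0.13 without young replicate 1 (adjusted p = 0.405).

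Complex IV, cytochrome c oxidase, reduces oxygen to water. Its 20 listed genes fell into a group of 12 above 70 FPKM and a group of 8 under 2 FPKM. The 8 were isoforms known from other tissues and near relatives. Cox6a1, the general form of subunit 6a, had the highest mean of the complex, with 214, 367 and 567 FPKM in the young and 348, 284 and 322 FPKM in the old libraries, while Cox6a2, the heart and muscle form, had 0.35 to 1.03 FPKM. The ratio of mean FPKM was 423 for Cox6a1 over Cox6a2, 924 for Cox4i1 over Cox4i2, the lung form, 159.6 for Cox6b1 over Cox6b2, the testis form, 150.3 for Cox7a2 over Cox7a1, the muscle form, and 1242 for Cox7b over Cox7b2. Ndufa4 was at 717 times Ndufa4l2, a relative known for its induction by low oxygen. Cox8a read 220.3, 361.5 and 301 FPKM in the young and 311, 241.5 and 299 FPKM in the old libraries, and Cox8b and Cox8c were listed at 0 in all 6. The low forms had 0 to 21 expected counts per library, so their differences between the age groups have wide errors. Cox6b2 alone of them passed the filter, at 1.35, 1.38 and 2.59 FPKM in the young and 0.51, 1.25 and 1.32 FPKM in the old libraries, with a log2 difference of -0.82 ± 0.54 (adjusted p = 0.699).

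**Figure D3:**
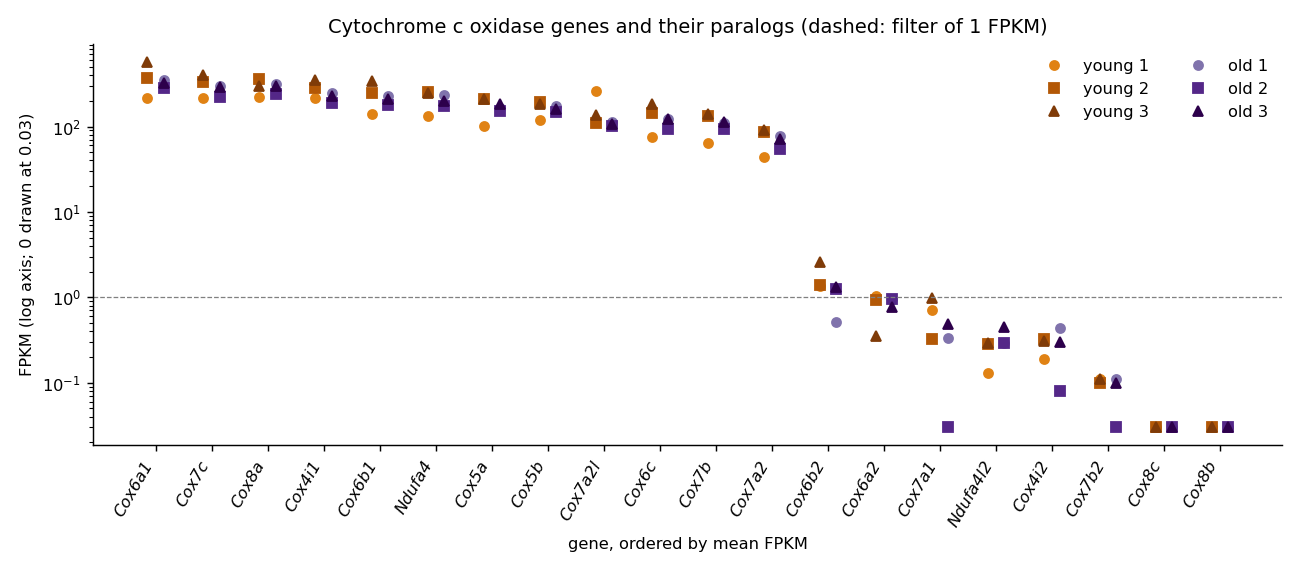
FPKM (log axis) of the 20 complex IV genes in each library, ordered by mean; young libraries are orange to brown, old libraries violet, and a value of 0 is drawn at 0.03. Genes used by these cells lie above 70 FPKM on average and their paralogs of other tissues below or near 1 FPKM, and young replicate 1 is the lowest young library for every highly expressed gene but Cox7a2l.

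The 11 structural subunits of complex IV, Ndufa4 among them, had a median log2 difference of -0.14 with all libraries and of -0.42 without young replicate 1, with 0 called in either and 9 at an unadjusted p under 0.05 in the latter. With the length offsets described below these medians were 0.02 and -0.12. In the latter fit 1 of the 11 had an unadjusted p under 0.05, beside 12.5% of all genes lower at that level. Cox4i1, which binds nucleotides that regulate the enzyme, read 218, 284 and 350.5 FPKM in the young and 245, 187 and 231 FPKM in the old libraries. It had the most negative difference of these 11 with all libraries, -0.39 ± 0.23 (adjusted p = 0.658), and reached -0.56 ± 0.16 (adjusted p = 0.0656) without young replicate 1. Cox5b, the zinc-binding subunit, read 118, 192 and 185 FPKM in the young and 175, 149.8 and 159 FPKM in the old libraries, with -0.26 ± 0.12 (adjusted p = 0.201). Cox7c, the second highest by mean, read 216, 332 and 398 FPKM and then 297, 220.1 and 289 FPKM, with -0.48 ± 0.17 (adjusted p = 0.115).

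Cox7a2l, a relative of Cox7a2 known for joining complexes III and IV in supercomplexes, and carried by C57BL/6 mice in a short form, ran opposite to the rest in young replicate 1. It read 264, 109 and 138 FPKM in the young and 114, 101 and 106 FPKM in the old libraries. Young replicate 1 stood at 2.14 times the mean of the other young libraries; the next member, Ndufa6, stood at 1.06 times, and 10.4% of all genes tested had a ratio at least as high as that of Cox7a2l. The log2 difference of Cox7a2l was -0.67 ± 0.31 with all libraries (adjusted p = 0.52) and -0.24 ± 0.15 without young replicate 1 (adjusted p = 0.309). Cox7a2 itself read 44.4, 85.5 and 90.9 FPKM in the young and 77.8, 54.3 and 71.1 FPKM in the old libraries, in the common order.

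Complex V had the highest median level of all complexes, 213 FPKM per gene. The median was 55.2 for complex I, 71.4 for complex II, 117 for complex III and 171 for complex IV. The sets of complexes I and IV include paralogs, and that of complex I assembly factors as well. Over structural subunits alone the medians were 67.2 FPKM for complex I and 207 FPKM for complex IV, the latter close to complex V. The catalytic head and its stalk (Atp5a1, Atp5b, Atp5c1, Atp5d and Atp5e) ranged from 163 to 561 FPKM, with a median log2 difference of -0.40 without young replicate 1 and 0 called. Atp5b, the catalytic beta subunit, had the highest mean of all members, with 363, 661 and 681 FPKM in the young and 542, 555 and 564 FPKM in the old libraries. The old libraries differed by a few percent from each other and lay below young replicates 2 and 3, with a log2 difference of -0.31 ± 0.13 (adjusted p = 0.151). Atp5e, the small epsilon subunit of the stalk, spread the most of these 5, with 115, 235 and 566 FPKM in the young and 199, 172 and 185 FPKM in the old libraries. Its young libraries lay far apart and enclosed the old ones. It had the lowest ratio of young replicate 1 to the other young libraries of all members, 0.287, and log2 differences of -0.75 ± 0.52 (adjusted p = 0.726) with all libraries and -1.16 ± 0.32 (adjusted p = 0.0613) without young replicate 1.

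**Figure D4:**
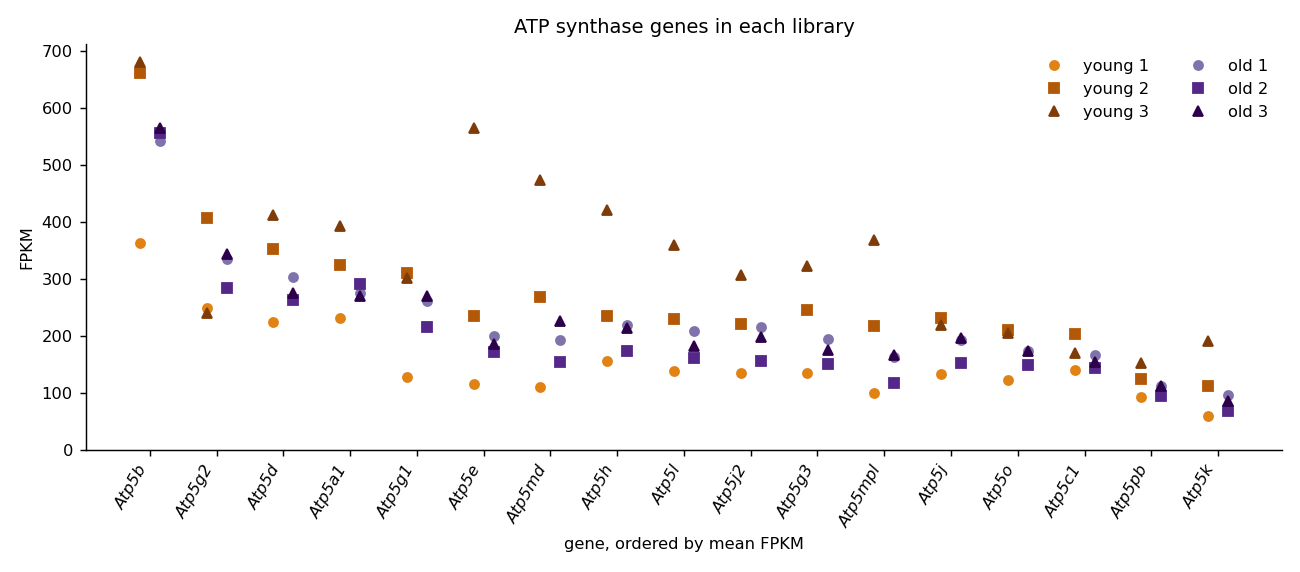
FPKM of the 17 ATP synthase genes in each library, ordered by mean; young libraries are orange to brown and old libraries violet, with no error bars since each point is a library. Young replicate 1 lies lowest for most genes and young replicate 3 highest, by the widest margin for Atp5e, while the old libraries stay close together.

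The 4 peripheral stalk subunits (Atp5pb, Atp5h, Atp5j and Atp5o), which hold the head still, had a median log2 difference of -0.42 without young replicate 1, with 0 called and 4 at an unadjusted p under 0.05. The other membrane subunits, Atp5j2, Atp5k, Atp5l, Atp5md and Atp5mpl, which support the dimers and the membrane part, had the most negative median of the enzyme, -0.91, with 1 of 5 called and 5 at an unadjusted p under 0.05. They also had the shortest transcripts of the enzyme, with a median of 336 bases. With the length offsets described below their median log2 difference was -0.33. Atp5mpl (gene number 70257, chr12:111961374-111967009), the small proteolipid of the membrane part, read 99.4, 217 and 368 FPKM in the young and 163, 118 and 166 FPKM in the old libraries. The old libraries lay between young replicates 1 and 2. The log2 difference was -0.64 ± 0.44 with all libraries (adjusted p = 0.724) and -1.01 ± 0.25 without young replicate 1 (adjusted p = 0.0442). Atp5k, subunit e of the membrane part, had the lowest mean of complex V, at 59.7, 112 and 192 FPKM in the young and 96.2, 67.9 and 85.3 FPKM in the old libraries, with -0.91 ± 0.25 (adjusted p = 0.0633).

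Subunit c, which forms the rotating ring in the membrane, is made from Atp5g1, Atp5g2 and Atp5g3, whose import signals differ but whose mature protein is known to be the same. Their summed level was 513, 965 and 863 FPKM in the young and 791, 650.1 and 790.3 FPKM in the old libraries. Atp5g3 (gene number 228033, chr2:73908447-73912464) read 135, 246 and 323 FPKM in the young and 195, 151 and 176 FPKM in the old libraries. All old libraries were below young replicates 2 and 3 and above young replicate 1. Its log2 difference was -0.45 ± 0.32 with all libraries (adjusted p = 0.732) and -0.75 ± 0.17 without young replicate 1 (adjusted p = 0.0323). Atp5g2 read 249.6, 407 and 239.9 FPKM in the young and 334, 284 and 344 FPKM in the old libraries, which overlapped, and its difference was -0.04 ± 0.20 (adjusted p = 0.923). Atp5g1 read 128, 311 and 301 FPKM and then 262, 215 and 270.0 FPKM, with -0.33 ± 0.13 (adjusted p = 0.151). The share of Atp5g2 in the sum was 48.7%, 42.2% and 27.8% in the young and 42.3%, 43.7% and 43.6% in the old libraries, and that of Atp5g3 was 26.4%, 25.5% and 37.4% and then 24.7%, 23.2% and 22.3%. The old libraries used the 3 genes in nearly the same proportions, and young replicate 3 stood apart with more Atp5g3 and less Atp5g2. The 3 genes have similar coding parts, so reads may have been divided between them by the authors' counting model.

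The members share short transcripts. Their median length, from the ratio of counts to FPKM, was 684 bases, against 2752 bases for the other genes tested, and 61 of 89 (68.5%) were under 1000 bases, against 7.36%. The order of libraries moved with length among genes that are no members as well. For the 109 such genes under 500 bases the median level relative to the gene's mean was 0.752 in young replicate 1, 1.28 in young replicate 3 and 0.788 in old replicate 2. For the 7159 of 2000 bases or more it was 1.07, 0.888 and 1.04. For members under 500 bases the values were 0.630, 1.51 and 0.759, and for the 6 members of 2000 bases or more 0.736, 1.20 and 0.987.

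**Figure D5:**
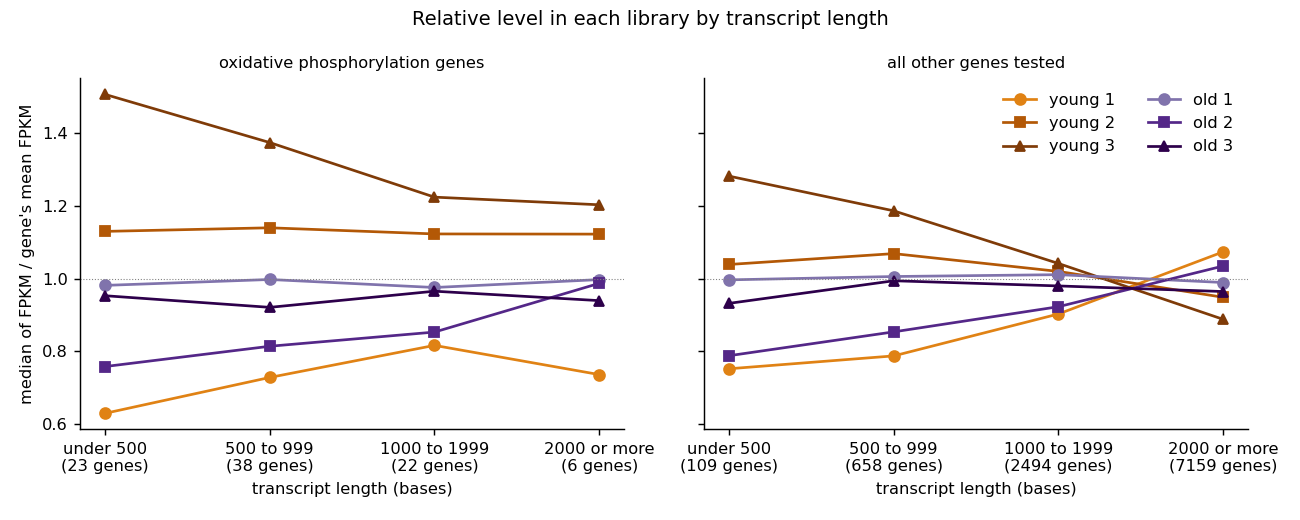
Median level in each library relative to the gene's mean over the 6 libraries, by transcript length, for the 89 oxidative phosphorylation genes (left) and all other genes tested (right); each line is a library. Young replicate 3 falls and young replicate 1 rises with length among the other genes, whose lines cross above 1000 bases, while among members the young libraries stay apart at every length.

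The differences between age groups moved with length too. Without young replicate 1 the median log2 difference over members was -0.56 under 500 bases, -0.48 from 500 to under 1000, -0.37 from 1000 to under 2000 and -0.26 at 2000 or more. Over the other genes tested it was -0.42, -0.29, -0.12 and 0.07 in the same classes. An edgeR fit, added after the data were seen, removed by offsets each library's trend with length over all genes tested. It gave a median of -0.17 over members, with 77 negative. At an unadjusted p under 0.05, 21 members were lower, beside 12.5% of all genes. At an adjusted p under 0.05, 4 were called, all lower, beside 2.93% of all genes. The 4 were Atp5g3 (-0.42, adjusted p = 0.0457), Ndufa11 (-0.60, adjusted p = 0.0392), Uqcrc1 (-0.35, adjusted p = 0.0438) and Ndufaf4 (-0.39, adjusted p = 0.0486), the last an assembly factor with a long transcript. Ndufc2 (-0.36, adjusted p = 0.0878) and Atp5mpl (-0.49, adjusted p = 0.0749) were no longer called. In the same length classes the medians of this fit were -0.13, -0.15, -0.24 and -0.31 over members. Over the other genes they were 0.02, 0.02, 0.02 and -0.01. Among members a trend with length thus remained, in the opposite direction (Spearman correlation 0.37 before the offsets and -0.34 with them). With all 6 libraries the same fit gave a median of -0.08, 60 negative and 0 called, beside 1.17% of all genes. The part of RNA quality or library preparation in this trend was not tested.

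Other mitochondrial genes, from lists that lie outside the rule, are given here as counts. Over all genes tested, 38.8% were lowest in young replicate 1 among the young. Without young replicate 1, 2.94% of all genes tested were called lower. At an unadjusted p under 0.05 there were 2950 of 10427 in either direction, and 13.3% of all genes were lower. Of 23 genes of mitochondrial protein import, all 23 were lower in young replicate 1 than in the other young libraries; the median log2 difference was -0.10 with all libraries and -0.32 without young replicate 1, and 4 were called lower in the latter, among them Tomm5 (-0.79, adjusted p = 0.0137) and Tomm6 (-0.98, adjusted p = 0.0293), both small parts of the outer membrane pore. Of 17 citric acid cycle and pyruvate dehydrogenase genes, 14 were lowest in young replicate 1 among the young, the medians were -0.08 and -0.20, and 1 was called lower, Idh2 (-0.78, adjusted p = 0.0286), the mitochondrial NADP-dependent isocitrate dehydrogenase. Of 39 tested assembly factors for the respiratory complexes that the rule does not take, 0 were called, and the medians were -0.12 and -0.24. Without young replicate 1, 11 of these 39 had an unadjusted p under 0.05, all lower, beside 13.3% of all genes lower at that level. Among 9 tested carriers and uncouplers the medians were -0.18 and -0.40, and Atpif1, the inhibitor of the ATP synthase, was called lower (-0.79, adjusted p = 0.0468). Without young replicate 1, 7 of these 9 genes had an unadjusted p under 0.05 in either direction. So did 13 of the 23 import genes and 5 of the 17 citric acid cycle and pyruvate dehydrogenase genes, beside 2950 of 10427 genes tested. Among 16 tested regulators of mitochondrial gene expression 0 were called, 1 had an unadjusted p under 0.05, and the medians were 0.09 and -0.08.

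Early genes of receptor stimulation moved with the low level of young replicate 1. These 28 genes summed to 4985, 9177 and 8121 CPM in young replicates 1, 2 and 3. In the old libraries they summed to 9757, 11315 and 13921 CPM. Of them, 25 were lowest in young replicate 1 among the young, beside 38.8% of all genes tested. They differed from the members in the old libraries: their median log2 difference was 0.83 with all libraries and 0.62 without young replicate 1. In the latter fit 9 were called higher and 0 lower, beside 623 of 10427 genes tested that were called higher. Whether the strength of stimulation in each culture bears on the members' levels was not tested.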

How the data were processed

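Per the labels, total RNA was sequenced by standard Illumina methods; sample titles gave each library's group and replicate number. The table deposited by the authors lists 66712 transcripts, each with expected counts and FPKM values for every library, per the file headers. The submitters' processing notes name Bowtie, RSEM and GRCm38 (mm10). Versions, annotation and strand setting were not given in the sources used here. An expected count shares out reads that match several transcripts, and FPKM corrects for length and depth with 1 factor each, so a bias with length within a library remains in both.

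Both measures were summed per Entrez gene, and symbols were taken from the RefSeq table of GRCm38; 19830 numbers matched, and the 147 others held 0.121% to 0.211% of counts. Summed counts were rounded. EdgeR 4.0.16 in R 4.3.3 tested genes with a mean of at least 1 FPKM over the libraries in the fit, with TMM factors, no replicate block and Benjamini-Hochberg adjustment over all of them. Standard errors were taken as the size of the log2 difference over the root of the F statistic. The code was tested on simulated data. No libraries of the same age group agreed within sampling noise (smallest chi-square per degree of freedom between any 2 libraries of a group, 23.0). Limma 3.58.1 and DESeq2 1.42.0 were alternatives. Length offsets came from a lowess of each library's log2 count relative to the gene's mean on log2 length. Levels are FPKM as deposited by the authors, with no scaling of their own; CPM uses TMM-scaled totals.

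The members and gene lists were chosen with earlier results of these data known, including that young replicate 1 stands apart, so lists are described by counts and medians with no test of their own. Named members were those called, the 2 highest and the lowest per complex, the largest rise and fall per complex, paralogous isoforms, Cycs, Cyc1 and the Sdh genes. Ndufa6, Ndufaf4 and Ndufaf7, the members named in subgroups by role, and the promoters printed, all of which hold a searched motif, were chosen after values were seen. Values of 1 gene are not reported here. Figures were drawn with matplotlib 3.10.9.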

Additional observations from a re-analysis of the deposited data

How the results depend on the processing

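With all 6 libraries, 0 members were called under every alternative but leaving out young replicate 1; leaving out each library gave 0 to 5. The 92 genes called became 203 with no filter on low values, 55 at a mean FPKM of at least 5 and 501 with DESeq2, and 0 to 930 when each library was left out: 930 without young replicate 1, 0 without young replicate 2 (1315 at an unadjusted p under 0.05), 7 without young replicate 3, 6, 1 and 9 without old replicates 1, 2 and 3. The median log2 difference over members ranged from -0.30 to -0.003 over left-out libraries other than young replicate 1. Without young replicate 1, the 5 members called became 3 with library totals in place of TMM factors, 41 with DESeq2, 2 with limma on log2(FPKM + 1) and 2 on log2(FPKM + 0.1), and 0 to 29 when a further library was left out: 29 without young replicate 2, 0 without young replicate 3, old replicate 2 or old replicate 3, and 6 without old replicate 1. With no filter 6 were called, of which 3 were among the 5. The 930 genes called there became 1799 with DESeq2 and 36 to 1007 over left-out libraries, 36 without young replicate 3 and 205 without old replicate 2. The median over members was -0.17 with length offsets, an alternative added after the data were seen, and -0.61 to -0.32 over left-out libraries. The replicate number as a block gave 0 members and 119 genes with all libraries, and 34 members and 1311 genes (495 lower) without young replicate 1. Same-numbered libraries deviated together with r = 0.232, -0.025 and 0.209. Young replicate 1 correlated best with old replicate 1 but young replicate 2 with old replicate 3. With 3 libraries per group these values cannot decide whether the numbers pair the libraries, and the labels do not say. Among the 35 named members that were tested with all libraries, 5 passed an adjusted p of 0.05 under an alternative, each without young replicate 1. None of the 35 was called with all libraries, and the sign of these uncalled differences changed for 13 without young replicate 3 (Atp5e, Cox6a1 and Cox6b1 among them), 8 with length offsets, 7 without young replicate 2, 6 without old replicate 2 and at most 3 under any other alternative. The causes were not tested. Small groups limit all of this: the young group has 2 libraries once young replicate 1 is left out, and members below 1 FPKM, 7 of which entered the fits with no filter, rest on few counts.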
